A study of Mus musculus with 2 samples.

Results

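The miR-17-92 cluster is a group of miRNAs that are cut from one primary transcript. Its members were chosen by name, not by their values: 9 mature miRNAs on the array carry names of this cluster, out of 1080 miRNA names in all. They are mmu-miR-17-5p, mmu-miR-17-3p, mmu-miR-18a-5p, mmu-miR-18a-3p, mmu-miR-19a-3p, mmu-miR-20a-5p, mmu-miR-20a-3p, mmu-miR-19b-3p and mmu-miR-92a-3p. Of these 9, 8 were detected on both arrays and 1, mmu-miR-20a-3p, on neither.

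The cells were bone marrow cells of C57BL/6 mice grown toward myeloid-derived suppressor cells (MDSCs), which are immature myeloid cells that hold back T cells. Both cultures lasted 4 days in 5% FBS medium with GM-CSF, which drives myeloid growth, at 40 ng/ml; one of them also received IL-6, an inflammatory cytokine, at 40 ng/ml. Each culture gave 1 single-colour Agilent miRNA array, so there is no replicate check and no p-value, and each error below is a standard error from the repeated spots of an array (spot SE). The number and age of the mice, and any sorting of the cells after culture, are not given in the sources used here.

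A miRNA hairpin is cut first in the nucleus and then in the cytoplasm, and one of its arms is usually loaded into Argonaute while the other is mostly lost. The loaded arm finds messenger RNAs mainly through its seed, which here means bases 2 to 8. The cluster is induced by Myc, is active in proliferating blood progenitors and B cells, and lowers among others the death protein BIM. In mouse MDSCs, miR-17-5p and miR-20a have been reported to lower STAT3, the transcription factor that IL-6 activates, and in human endothelial cells the cluster itself has been reported to respond to IL-6 through STAT3.

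The mature sequences are shown because the seeds sort the 9 members into groups that can share targets. They were read from RefSeq (GRCm38.p6), where 9 of 9 members had an entry, and the seed is in capitals.
mmu-miR-17-5p: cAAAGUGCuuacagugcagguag
mmu-miR-20a-5p: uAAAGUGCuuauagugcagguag
mmu-miR-18a-5p: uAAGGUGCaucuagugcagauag
mmu-miR-19a-3p: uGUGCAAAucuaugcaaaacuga
mmu-miR-19b-3p: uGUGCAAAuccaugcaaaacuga
mmu-miR-92a-3p: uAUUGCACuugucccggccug
mmu-miR-17-3p: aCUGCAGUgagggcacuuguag
mmu-miR-18a-3p: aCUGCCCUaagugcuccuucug
mmu-miR-20a-3p: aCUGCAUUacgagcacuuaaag

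The seed AAAGUGC was shared by mmu-miR-17-5p and mmu-miR-20a-5p, and the seed GUGCAAA by mmu-miR-19a-3p and mmu-miR-19b-3p. The other 5 members each had a seed of their own within the cluster. Counted from 1 at the 5′ end, mmu-miR-20a-5p differed from mmu-miR-17-5p by C1U and C12U, and mmu-miR-19b-3p differed from mmu-miR-19a-3p by U11C. In these tokens the base of the first miRNA stands before the position and that of the second after it. The seed of mmu-miR-18a-5p, AAGGUGC, differed from that of mmu-miR-17-5p at A4G.

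The cluster spans 836 bases of chromosome 14 on the plus strand of GRCm38.p6, from the first base of the Mir17 hairpin at 115043671 to the last base of Mir92-1 at 115044506. The 6 hairpins follow each other in the order Mir17, Mir18, Mir19a, Mir20a, Mir19b-1 and Mir92-1. The sequence of mmu-miR-19b-3p is also encoded by Mir19b-2, and that of mmu-miR-92a-3p by Mir92-2, both on the X chromosome in the related miR-106a-363 cluster. The signals of these 2 members therefore cannot be assigned to one cluster, while the other 7 members each had 1 locus in the table. A single locus does not make a signal specific, since some members differ from another member or a paralog by only 1 base. Probe sequences were not in the sources used here, so binding of a probe to such a similar miRNA was not tested.

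Of 3 hairpins both arms are members, and these are shown because their 2 arms are compared below; only Mir20a had an arm that was not detected. The arms are in capitals, the 5p arm first.
Mir17 (chr14:115043671-115043754, plus strand): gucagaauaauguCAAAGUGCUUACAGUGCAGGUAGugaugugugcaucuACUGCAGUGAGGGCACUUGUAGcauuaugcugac
Mir18 (chr14:115043851-115043946, plus strand): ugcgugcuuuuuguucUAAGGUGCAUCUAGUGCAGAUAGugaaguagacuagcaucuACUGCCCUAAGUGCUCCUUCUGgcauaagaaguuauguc
Mir20a (chr14:115044157-115044263, plus strand): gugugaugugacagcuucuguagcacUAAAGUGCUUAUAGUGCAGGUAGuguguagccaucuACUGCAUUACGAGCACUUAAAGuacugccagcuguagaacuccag

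With IL-6 308 miRNA names were detected, without it 301, and on both arrays 292, and 0 spots were saturated. Of the 1080 names on the array 1023 are mouse names and the others are viral. Some viral names, such as mghv-miR-M1-2-3p, are among the 292. The level of a miRNA is the sum of the scanner's background-subtracted totals over its probes, in scanner units. The myeloid markers were all detected: the granulocyte miRNA miR-223-3p stood at 6239 with IL-6 and 6807 with GM-CSF only. For miR-142-3p, found across blood cells, they were 1398 and 1460. Of 5 stromal markers 0 were detected on either array. Of 2 erythroid markers on the array 1 was detected on both arrays, miR-451, at 8.10 and 10.4, and with IL-6 only 1 of its 40 spots was well above background. Among 2 megakaryocyte markers 1 was detected, miR-126-3p, at 11.0 and 12.8, and both lymphoid markers were, miR-150-5p at 54.2 and 62.6 and miR-181a-5p at 28.3 and 31.3. The part of these other cells in the values below was not tested. In such bulk samples, fewer cells of a type and less RNA per cell cannot be told apart.

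The question that the design implies is whether IL-6, added to GM-CSF, altered these miRNAs. The members lay close together and close to the other miRNAs. Of the 8 detected members, 0 were past 1.5-fold higher with IL-6 relative to the median of all 292 miRNAs, where 3.42% of the 292 were, and 0 were past 1.5-fold lower, where 0% of the 292 were. Past 2-fold there were 0 members higher, against 1.03% of the 292, and 0 lower, against 0%. The member farthest from the median of all was mmu-miR-18a-3p, with a relative fold of 1.06.

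A relative log2 ratio here is log2 of the signal with IL-6 over the signal without it, minus the median of that value over those 292 miRNAs. It is used because the deposited signals were not scaled between arrays. The median log2 ratio of all 292 was -0.06 on the signals as deposited and 0.12 after division of each array by its own 75th percentile (160 and 182). As deposited, 7 of the 8 members had lower signals with IL-6, by 4.1% to 8.5%, and after that scaling all 8 were higher. The sign of the unadjusted difference thus depended on the scaling, and a relative value cannot change under any scaling that multiplies a whole array by 1 factor.

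Across the 8 members the median relative log2 ratio was -0.0085, with 5 below and 3 above the median of all. With the median of the mouse names alone as reference, the members' median was -0.0018. Their highest and lowest values were 0.15 apart, with an SD of 0.045. Without mmu-miR-18a-3p, which was at the limit of detection, the other 7 were 0.067 apart with an SD of 0.024. The SD over all 292 miRNAs was 0.26 and the middle 50% of them lay between -0.09 and 0.16. All 8 members were within 1.1-fold of the median of all, as were 166 of the 292 miRNAs (56.8%).

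The SD was 0.19 over the brighter 146 of the 292, so a comparison at like signal is given too. The 5 members at or above the median level of all, mmu-miR-18a-5p, mmu-miR-19a-3p, mmu-miR-20a-5p, mmu-miR-19b-3p and mmu-miR-92a-3p, spanned relative log2 ratios from -0.063 to 0.0011 with an SD of 0.027. The 71 miRNAs at least as bright as mmu-miR-19a-3p, these 5 included, spanned -0.46 to 0.50 with an SD of 0.15. A share of 16.8%, or 49 of the 292 miRNAs of any brightness, these 5 included, lay between the lowest and the highest of the 5. Those limits were set by the 5 themselves. These are descriptions of 2 arrays, with no test that the cluster stood apart.

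**Figure D1:**
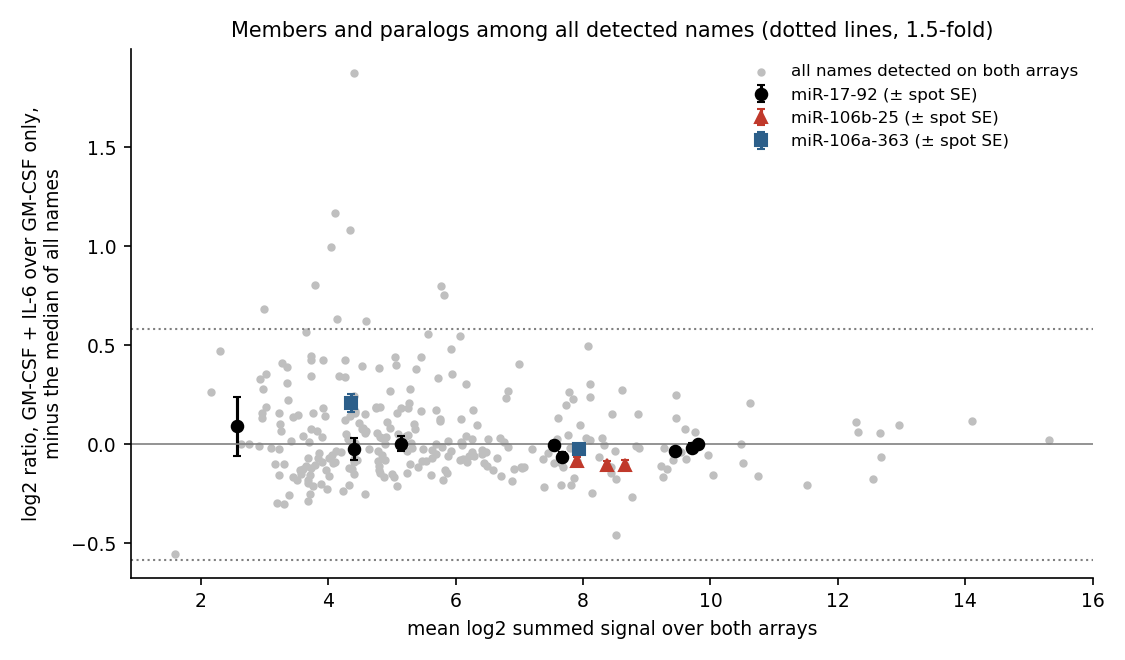
Relative log2 ratio (vertical axis) against the mean log2 summed signal over both arrays (horizontal axis) for the 292 miRNAs detected on both, as grey points. The 8 detected miR-17-92 members (black circles), the 3 of miR-106b-25 (red triangles) and the 2 of miR-106a-363 that are not shared (blue squares) have spot SE bars, and all lie within the dotted lines at 1.5-fold.

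The miR-17 seed group held a bright and a dim member. The signal of mmu-miR-20a-5p was 814 ± 9.0 (spot SE, 40 spots) with IL-6 and 860 ± 9.0 with GM-CSF only, a relative log2 ratio of -0.016 ± 0.022. Its spots on the brighter probe ran from 1214 to 1573 with IL-6 and from 1241 to 1595 without it. The ranges of the arrays overlapped, and the difference from the median of all was smaller than the spot SE.

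The signal of mmu-miR-17-5p was 20.5 ± 0.50 with IL-6 and 21.8 ± 0.60 with GM-CSF only, a relative log2 ratio of -0.023 ± 0.053. Its probes stood at -0.099 and 0.009, and without the second probe of each name its value was -0.11, against -0.035 for mmu-miR-20a-5p. Under quantile normalization the values were -0.095 and 0.031. With 2 arrays, that normalization gives a log2 ratio of 0 to any miRNA of unchanged rank, before the median of all is subtracted. The value of mmu-miR-20a-5p was fixed in this way. Of the 40 spots of mmu-miR-17-5p, 22 and 25 were well above background. All of the other spots belonged to its dimmer probe, which had 2 and 5 of 20 above it, while the brighter probe had 20 of 20 on each array. This member, for which the cluster is named, was thus one of its dimmest on the array, although it differs from mmu-miR-20a-5p by only the 2 bases given above. Why the probes of such similar miRNAs differed in signal was not tested, and signals of different probes are not copies of miRNA.

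The miR-18 member had the lowest relative ratio of the cluster. The signal of mmu-miR-18a-5p, a miRNA whose processing in human cells depends on the RNA-binding protein hnRNP A1, was 195 ± 2.9 with IL-6 and 213 ± 1.8 with GM-CSF only, a relative log2 ratio of -0.063 ± 0.025. Both of its probes were below the median of all, at -0.028 and -0.074. Across the 12 alternatives other than the 3 uniform scalings, its value ran from -0.075 to 0.031. The upper end was again fixed by an unchanged rank under quantile normalization. It was the lowest of the 5 bright members in 7 of the 12. The authors' table, gene totals and leaving out probe 3 or 4 of each name are among those 7. They could not change the order of the 5, which have 2 probes each. Apart from them, mmu-miR-18a-5p was the lowest only with loess, on odd spots and on even spots.

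The miR-19 members, which carry most of the tumour-promoting activity of the cluster in mouse lymphoma models, had the ratios nearest to the median of all. The signal of mmu-miR-19b-3p was 873 ± 8.6 with IL-6 and 912 ± 6.9 with GM-CSF only, a relative log2 ratio of 0.0011 ± 0.018. That of mmu-miR-19a-3p was 183 ± 1.9 and 191 ± 1.5, a relative log2 ratio of -0.00052 ± 0.019. Their values differed by far less than the spot SE. The probes of mmu-miR-19a-3p stood apart more than those of any other member above the median level, at 0.037 and -0.074, and those of mmu-miR-19b-3p at -0.0023 and 0.023.

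The miR-92 member, known for lowering an integrin in endothelial cells, was among the bright ones. The signal of mmu-miR-92a-3p was 670 ± 4.5 with IL-6 and 717 ± 5.7 with GM-CSF only, a relative log2 ratio of -0.034 ± 0.015. Its probes stood at -0.054 and -0.032, both below the median of all. Its lowest value over the alternatives, -0.12, came with normexp background correction, and its highest was -0.00081.

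The 3 remaining members are the arms opposite to mmu-miR-17-5p, mmu-miR-18a-5p and mmu-miR-20a-5p, and they differed in whether they could be seen at all. The signal of mmu-miR-17-3p, an arm reported to act on antioxidant enzymes in human cells, was 34.7 ± 0.62 with IL-6 and 36.2 ± 0.64 with GM-CSF only, a relative log2 ratio of 0.0038 ± 0.037. Of its 40 spots, 35 and 39 were well above background.

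The signal of mmu-miR-18a-3p was 5.97 ± 0.43 with IL-6 and 5.86 ± 0.43 with GM-CSF only, a relative log2 ratio of 0.091 ± 0.15. It counted as detected by the scanner's flag through 1 of its 4 probes, whose total exceeded 3 times its error, and 0 of 40 spots were well above background on either array. Its gene total in the scanner files, 126 and 143, was far above the sum of its probes, as it was for 75 and 71 detected names in all, and was used only as an alternative. The third of these arms, mmu-miR-20a-3p, had signals of -0.82 ± 0.45 and -0.57 ± 0.43 and was not detected. Its spots ran from -10.4 to 10.4 with IL-6 and from -8.94 to 12.4 with GM-CSF only, so no ratio can be given.

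**Figure D2:**
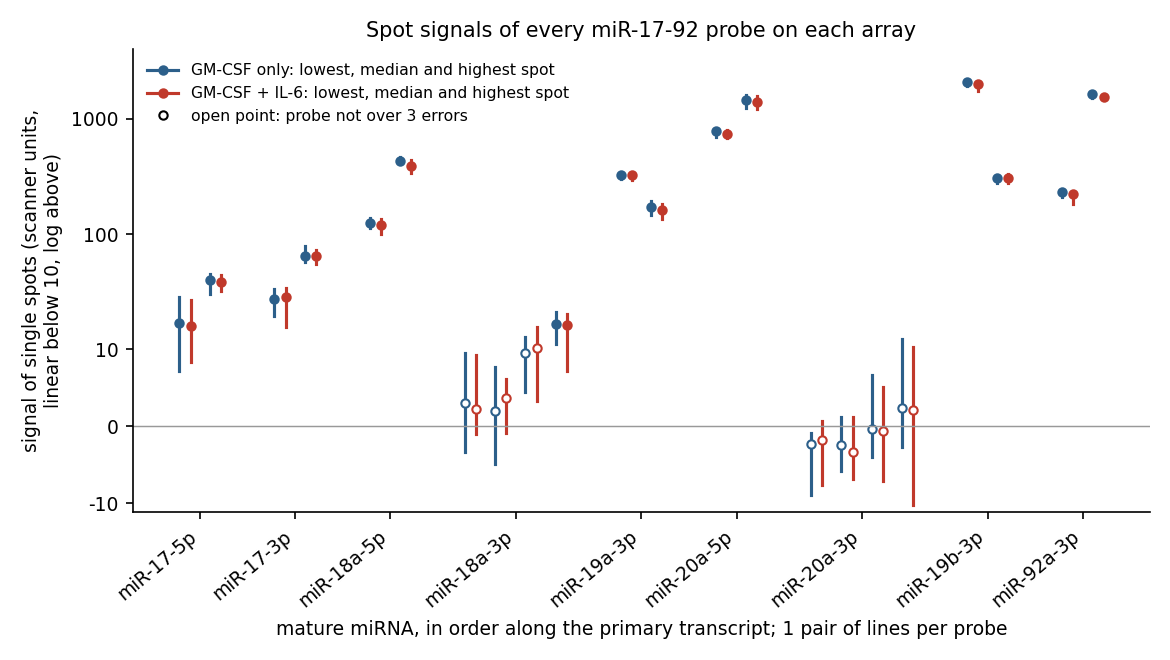
Signals of single spots for each probe of the 9 members, in scanner units on an axis that is linear below 10 and logarithmic above, with lines from the lowest to the highest spot and points at the median (outlier spots left out; open points, probe totals not over 3 errors). Within every probe the lines of the 2 arrays overlap, and the spots of miR-20a-3p lie between -10.4 and 12.4.

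At the level of spots, the ranges of the arrays overlapped in all 22 probes of the 9 members. The same held for 93.4% of the 709 probes of the miRNAs detected on both arrays. The 14 probes of the 7 members without mmu-miR-18a-3p all had lower totals with IL-6 as deposited, where the median of all was also lower, and 10 of the 14 lay below that median. Their relative log2 ratios ran from -0.099 to 0.037.

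**Figure D3:**
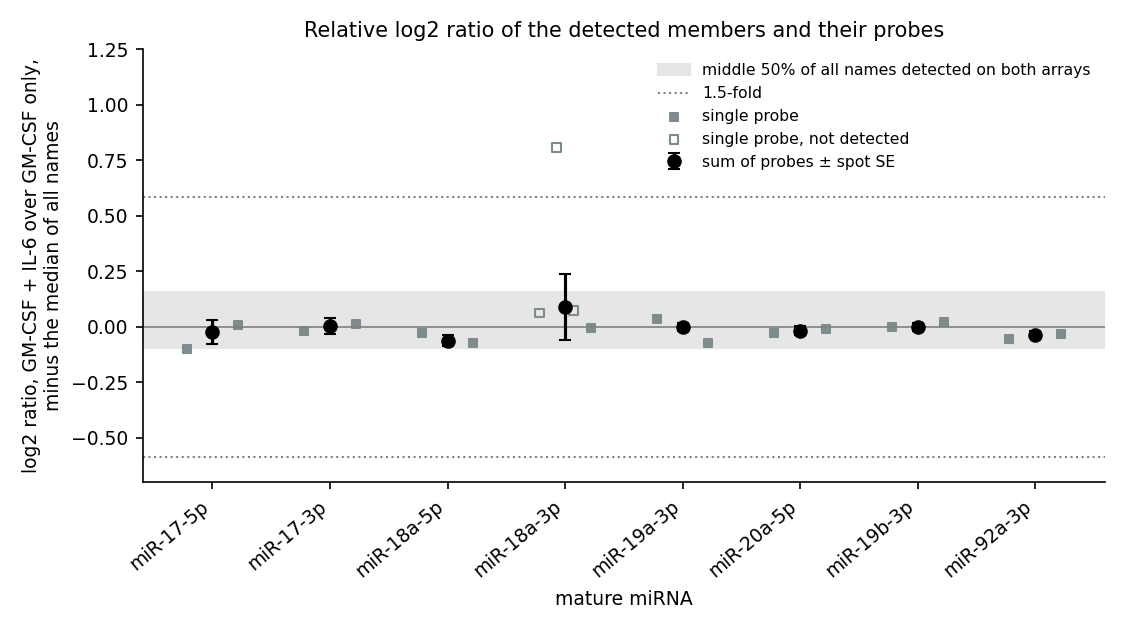
Relative log2 ratio of the 8 detected members (black, ± spot SE) and of their single probes (squares, open where the probe was not detected on both arrays), with the middle 50% of all 292 miRNAs in grey and 1.5-fold as dotted lines. The members lie between -0.063 and 0.091; the single probe at 0.81 belongs to miR-18a-3p and was not detected.

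Each pair of the 8 detected members was also set side by side, 28 pairs in all. In 2 pairs the relative log2 ratios differed by more than 2 spot SE, and in 0 by more than 3. Both pairs were mmu-miR-18a-5p against a miR-19 member, by -0.063 ± 0.031 for mmu-miR-19a-3p and by -0.064 ± 0.030 for mmu-miR-19b-3p. Without the first probe of each name, mmu-miR-18a-5p stood at -0.075, mmu-miR-19a-3p at -0.076 and mmu-miR-19b-3p at 0.022. The first of the 2 differences was thus lost and the second was not. Spot SE covers neither the culture, nor the labelling, nor differences between the probes of a name. Differences of this size between members are therefore given as values only.

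The order of the signals was the same on both arrays for all 8 detected members. From the brightest, it ran mmu-miR-19b-3p, mmu-miR-20a-5p, mmu-miR-92a-3p, mmu-miR-18a-5p, mmu-miR-19a-3p, mmu-miR-17-3p, mmu-miR-17-5p and mmu-miR-18a-3p. Neighbours in this order differed by at least 3.45 spot SE, the closest being mmu-miR-18a-5p and mmu-miR-19a-3p with IL-6. Since each miRNA has its own probes, this is an order of signals and not of amounts. Among the detected names of each array, mmu-miR-19b-3p ranked 16 with and without IL-6, mmu-miR-20a-5p 18 and 18, and mmu-miR-92a-3p 24 and 23.

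The 8 members together gave 2.05% of all detected signal in the IL-6 culture and 2.11% in the other. The 3 brightest held 84.3% and 84.2% of that. These 3 miRNAs are encoded by the last 3 hairpins of the cluster, but mmu-miR-19b-3p and mmu-miR-92a-3p also by loci on the X chromosome, so the share of their signal from each locus is unknown.

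Both arms of a hairpin come from one precursor, so the log2 ratio of the 5p over the 3p signal was followed between the cultures. No scaling of a whole array can alter it. For Mir17 it was -0.76 with IL-6 and -0.73 with GM-CSF only, a difference of -0.027 ± 0.065, which was -0.12 on odd spots and 0.054 on even spots. For Mir18 it was 5.03 and 5.18, a difference of -0.15 ± 0.15 that rests on the barely detected mmu-miR-18a-3p and was 0 under quantile normalization and 0.056 with gene totals. That 0 was fixed by the unchanged ranks of both arms and is no separate measurement. As reported, the Mir17 difference was smaller than its spot SE and the Mir18 difference about as large as it. The direction of neither held under all alternatives.

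On the other 4 hairpins only 1 arm was detected. Of Mir20a that was the 5p arm, and of Mir19a, Mir19b-1 and Mir92-1 the 3p arm. The opposite arms miR-19a-5p, miR-19b-1-5p and miR-92a-1-5p, which are on the array and not among the 9 members, summed to -3.5 on the IL-6 array and -3.2 on the other and were detected on neither. At this signal an arm's absence from the cells cannot be told apart from a level under the array's limit.

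**Figure D4:**
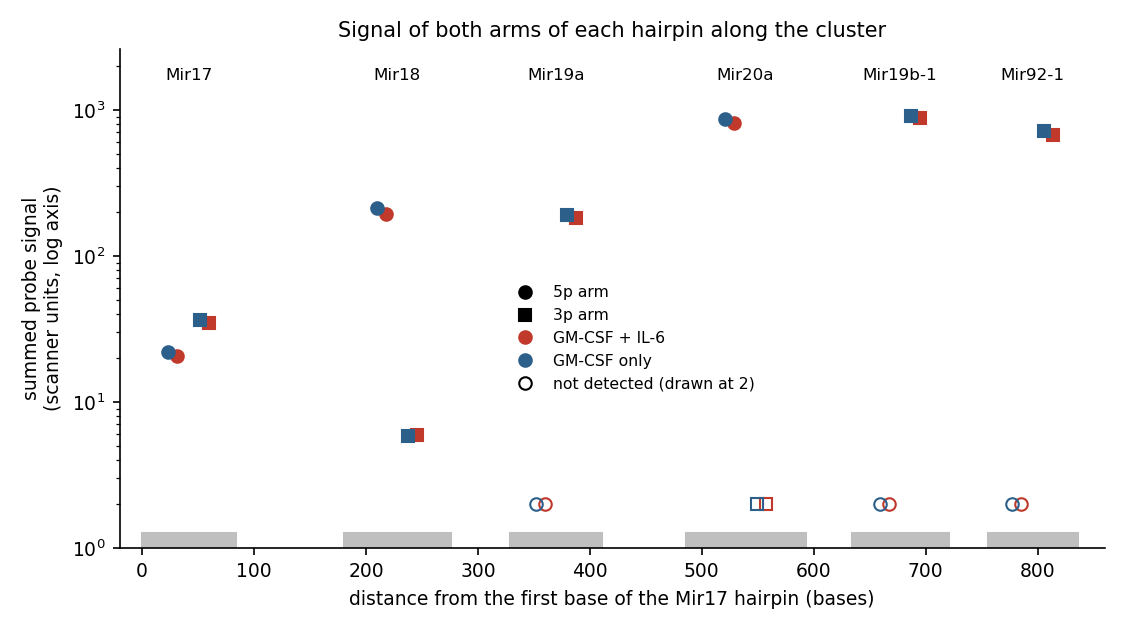
Summed signal (scanner units, log axis) of the 5p (circles) and 3p arms (squares) against the distance of each hairpin's middle from the first base of the Mir17 hairpin, with hairpins as grey bars; markers are shifted sideways to separate arms and arrays. Open markers, drawn at 2, are arms not detected; miR-20a-5p, miR-19b-3p and miR-92a-3p, at 670 or more, are drawn at the last 3 hairpins, although the signals of miR-19b-3p and miR-92a-3p can also come from their X-chromosome loci.

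The cluster has paralogs on other chromosomes that share some of its seeds, miR-106a-363 on the X chromosome and miR-106b-25 in an intron of Mcm7 on chromosome 5. Of the members' seeds, miR-106b-25 carries those of miR-17 and miR-92, but not those of miR-18 or miR-19. The mature sequences of the paralogs detected on both arrays are shown for comparison with the members, with the seed in capitals.
mmu-miR-106b-5p: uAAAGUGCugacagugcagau
mmu-miR-93-5p: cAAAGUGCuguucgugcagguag
mmu-miR-25-3p: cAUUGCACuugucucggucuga
mmu-miR-20b-5p: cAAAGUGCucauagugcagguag
mmu-miR-18b-5p: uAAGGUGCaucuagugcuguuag

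The 3 detected miRNAs of miR-106b-25 had relative log2 ratios lower than the 5 bright members. Signals with IL-6 and without it were 380 and 427 for mmu-miR-106b-5p, 228 and 253 for mmu-miR-93-5p, and 315 and 354 for mmu-miR-25-3p. Their relative log2 ratios were -0.10 ± 0.020, -0.085 ± 0.024 and -0.11 ± 0.023, against -0.063 to 0.0011 in the 5 bright members. All 3 remained below all 5 in 8 of the 12 alternatives other than the 3 uniform scalings. The authors' table, gene totals and leaving out probe 3 or 4 of each name are among those 8. They could not change this order, because these miRNAs have 2 probes each and kept their probe sums, apart from a factor common to the array. Apart from them the order held with loess, on odd spots, on even spots and without probe 1 of each name. The spot ranges overlapped in 6 of 6 probes, the difference has no replicate, and the gap between the lowest bright member and the highest of the 3 was smaller than their spot SEs.

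Of miR-106a-363, mmu-miR-20b-5p and mmu-miR-18b-5p were detected on both arrays besides the shared miRNAs. The signals of mmu-miR-20b-5p were 238 with IL-6 and 253 with GM-CSF only, and its relative log2 ratio of -0.025 ± 0.019 lay among those of the members. Those of mmu-miR-18b-5p were 21.6 and 19.5, a relative log2 ratio of 0.21 ± 0.047. It differs from mmu-miR-18a-5p by A18U and A20U outside the seed, and the higher signal with IL-6 was seen in 3 of its 4 probes as deposited. Of the 40 spots of mmu-miR-18b-5p, 28 with IL-6 and 20 with GM-CSF only were well above background. The spot ranges of the arrays overlapped in all 6 probes of mmu-miR-20b-5p and mmu-miR-18b-5p. Neither was followed under the alternatives, and the difference has no replicate. The name mmu-miR-106a-5p, whose sequence differs from mmu-miR-17-5p by U10A alone, was not analysed here, and miR-363-3p was detected on neither array. Of the further miRNAs with the miR-92 seed, miR-92b-3p was detected with GM-CSF only, at 8.65 with IL-6 and 10.9 without it, and miR-32-5p and miR-367-3p on neither array.

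Myc, which induces the cluster, represses many other miRNAs in lymphoma cells, among them members of the let-7, miR-26, miR-29 and miR-30 families. Of 22 such names listed, 21 were on the array and 19 were detected on both arrays. Of these, 18 lay below the median of all and 1 above it, with a median relative log2 ratio of -0.11, a range of -0.21 to 0.033, and 0 past 1.5-fold, against 3.42% of all miRNAs past that fold higher and 0% lower. The median of the miR-17-92 members was -0.0085 as reported and changed sign between alternatives. A part of Myc in these values was not tested. The detected names of the list are all brighter than the median level of the 292. For comparison, the 71 miRNAs at least as bright as mmu-miR-19a-3p had a median of -0.019. The list was chosen with earlier results of these data known, was not followed under the alternatives, and no test was made of it.

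Among miRNAs outside the cluster and its paralogs, and within the members' range of levels, those with the ratio nearest to the members' median were named by a fixed rule. They were miR-3069-3p with signals of 7.33 and 7.71, miR-1949 with 442 and 466, and miR-301a-3p with 53.9 and 56.8. Their relative log2 ratios were -0.0098, -0.01 and -0.01. Likeness over 2 arrays is 1 difference, which many miRNAs share, and says nothing about the genes.

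**Figure D5:**
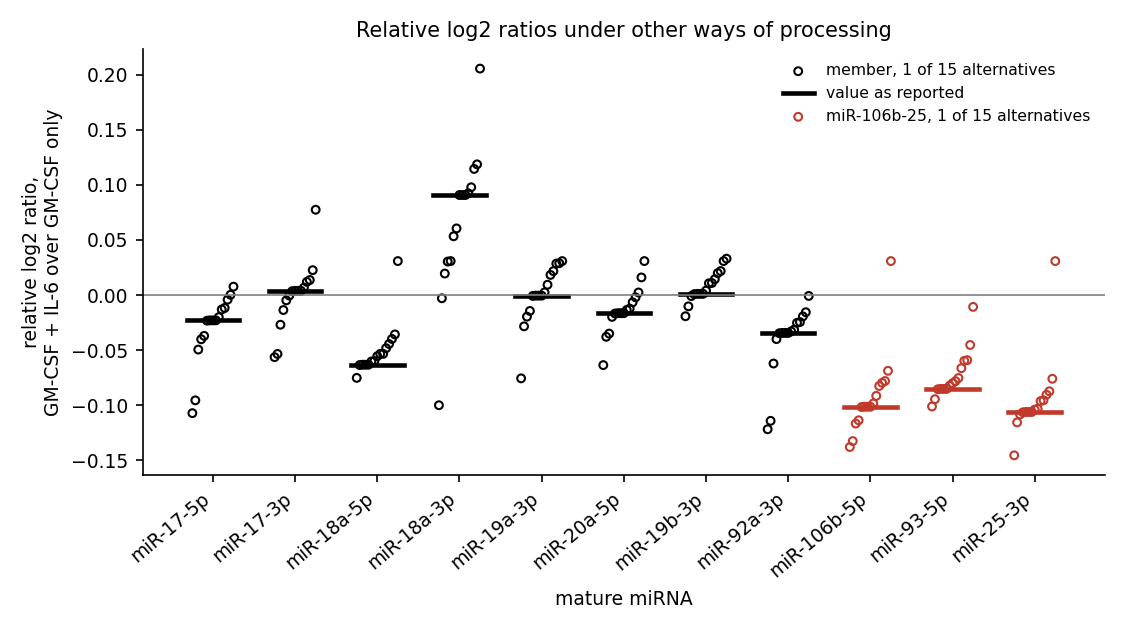
Relative log2 ratios of the 8 detected members (black) and of the 3 detected miR-106b-25 miRNAs (red) as reported (bars) and under 15 alternatives (open circles, each sorted from left to right by value). The members' values lie between -0.12 and 0.21, with the highest from miR-18a-3p.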

How the data were processed

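The members and lists were chosen with earlier results of these data known. RNA was isolated with a mirVana kit and 0.2 ug was labelled with Cy3, per the labels' protocols, which name a cRNA amplification kit. The authors' scanner files hold intensity values from Agilent Feature Extraction 10.7.1.1, background-subtracted and spatially detrended without scaling between arrays, per the file headers. Both arrays shared 1 slide and 1 scan. The authors' deposited table holds log2 values, which equalled the log2 sum of probes over 3 errors minus 1 constant per array (6.28 and 6.28) within 0.002 for all 308 and 301 detected names. The column medians were -9.60 and -9.60, and the origin of the constants is unknown.

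Levels are sums of probe totals, taken for names flagged as detected. Spot SE came from spots without outlier flags (13 and 23 of 360 member spots carried one). The rule for named miRNAs took all 9 members, detected paralogs, miR-223-3p, miR-142-3p and the 3 names nearest to the members' median. Detected markers of other cells, miR-92b-3p and the undetected arms and seed relatives are named outside it, after their values were seen. With 1 array per group no test was run, and fold sizes of 1.5 and 2 were counted. The functions were tested on simulated data. Alternatives were 3 uniform scalings, quantile and loess (span 0.7) normalization, mean log2 spot signals (floor 1), normexp (offset 50), the authors' table, odd or even spots, each probe left out, stricter detection, other folds and subsets of members. Gene totals, mouse names alone and the alternatives for miR-106b-25 were added after seeing the data. Python 3.11.15, numpy 2.4.6, pandas 2.3.3, matplotlib 3.10.9, R 4.3.3 and limma 3.58.1 were used.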

Additional observations from a re-analysis of the deposited data

How the results depend on the processing

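Under 15 alternatives, 0 of the 8 detected members passed 1.5-fold, and 3 of the alternatives scale whole arrays and cannot move a relative value. Over the 15 the members' median ran from -0.031 to 0.031, the latter with quantile normalization. In the 12 others it was below the median of all miRNAs in 9 and above it in 3, so its sign is not settled. The distance between the highest and lowest member, 0.15 as reported, was 0.093 with loess, 0.23 with mean log2 spot signals, 0.067 in the authors' deposited table and 0.26 without the last probe of 4-probe names. The arm difference of Mir18, -0.15 as reported, was 0 under quantile normalization and 0.056 with gene totals. That of Mir17, -0.027, was -0.12 on odd and 0.054 on even spots, in opposite directions. The 0 for Mir18 and the members' median of 0.031 were fixed by unchanged ranks under quantile normalization, as described above. In the authors' table, with gene totals and without the last probe of 4-probe names, only mmu-miR-18a-3p among the detected members could move singly. The cause of the other moves was not tested. Of 96 values of single members under those 12, 67 moved by less than their spot SE, 16 moved up and 13 down by more. The authors' table, gene totals and leaving out probe 3 or 4 of each name could only shift the members with 2 probes by a common amount. Their values in those settings are in the 96 although they could not move singly. When over 50% of the spots had to be well above background, 7 members counted as detected. The number of arrays, 1 per culture, limits every comparison. For mmu-miR-18a-3p and mmu-miR-20a-3p signal over background is a further limit.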
